A study of Mus musculus with 11 samples.

Results

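The 10 genes described here encode chaperones, folding enzymes and regulators of the unfolded protein response of the endoplasmic reticulum (ER): Hspa5, Hsp90b1, Dnajb9, Sdf2l1, Pdia4, Pdia6, Xbp1, Herpud1, Calr and Creld2. They were chosen by symbol from the 36529 genes listed in the count files, and all 10 were found and had enough counts to be tested in every comparison. RNA was sequenced from 11 samples of BV2 cells, a transformed mouse microglial line of strain C57BL/6. In one experiment, 3 samples were treated with nApoE4, the amino-terminal fragment of ApoE4 (residues 1 to 151), at 25 μg/ml for 5 h, and 3 untreated samples (ControlA) were their controls. The second experiment had 2 samples given nApoE3, the matching fragment of ApoE3, with no change of dose or time, and 3 other untreated samples (ControlB) as controls. The fragments differ by a single amino acid and both carried a histidine tag. The labels name a PBS vehicle for the untreated cells while the study's methods name conditioned media, so that what the controls received is not known. Fragment and experiment cannot be told apart, since each fragment was used in 1 experiment. The study calls its measurements independent, but neither it nor the labels say whether the samples of a group came from separate cultures, and the p-values measure the spread between these samples, which may be technical.

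Proteins that enter the secretory pathway fold in the ER with the help of chaperones and of enzymes that form disulfide bonds. When unfolded proteins build up, 3 membrane sensors respond: IRE1 (Ern1) splices the mRNA of the transcription factor Xbp1, ATF6 is cut in the Golgi to release a transcription factor, and PERK (Eif2ak3) slows translation and favors that of Atf4. ATF6 and spliced XBP1 act on chaperone and degradation genes through short promoter elements, and the ATF4 arm acts on genes of amino acid metabolism and on Ddit3, which encodes CHOP. In macrophages and microglia, these pathways are known to be engaged when the cells turn to secreting cytokines.

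The ER stress response element (ERSE) is CCAAT and CCACG with 9 bases between them, and ERSE-II is ATTGG and CCACG with 1 base between them. These elements are shown because they set the 10 genes into classes with which the changes described further on can be compared. Both strands of the RefSeq promoter windows (GRCm38.p6, 250 bases before to 50 after each start) were searched for the exact letters. All 10 genes had a window. Distances are counted from the RefSeq start. For Dnajb9, Hspa5, Hsp90b1 and Pdia6, this start lies 258, 120, 65 and 44 bases inside the GENCODE gene whose coordinates are given further on. The Hspa5 ERSE thus falls within the GENCODE gene. The whole Dnajb9 window also does, so that no bases before the GENCODE start of Dnajb9 were searched. ERSE was found in 5 of the 10 genes and ERSE-II in 1 more, against 0.137% and 0.0444% of the 27025 genes with a window. Among 18 other ER chaperones and folding enzymes with a window, 3 had ERSE and 1 had ERSE-II. Among 15 genes of ER-associated degradation with a window, 2 had ERSE and 0 had ERSE-II. The matches are printed 5′ to 3′ on the strand that reads CCACG, with the fixed letters of the element in capitals.
Hspa5 ERSE, chr2:34772025-34772043, 47 bases before the start: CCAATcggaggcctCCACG
Hsp90b1 ERSE, chr10:86705638-86705656, 194 bases before the start: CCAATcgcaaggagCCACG
Hsp90b1 ERSE, chr10:86705533-86705551, 89 bases before the start, on the other strand: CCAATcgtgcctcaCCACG
Pdia6 ERSE, chr12:17266491-17266509, 80 bases before the start: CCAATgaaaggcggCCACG
Calr ERSE, chr8:84847075-84847093, 144 bases before the start, on the other strand: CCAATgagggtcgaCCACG
Creld2 ERSE, chr15:88819520-88819538, 108 bases before the start, on the other strand: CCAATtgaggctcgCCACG
Herpud1 ERSE-II, chr8:94386377-94386387, 42 bases before the start: ATTGGgCCACG
The windows of Dnajb9, Sdf2l1, Pdia4 and Xbp1 held neither element with these exact letters. The core of the unfolded protein response element, TGACGTG, was found in the Hspa5 window alone among the 10, at chr2:34771933-34771939, against 2.22% of all genes. Either box alone is common, with CCAAT in 41.1% and CCACG in 35.5% of all genes on either strand. A match is a description of the window and no evidence of binding.

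Samples held 39732710 to 44162511 counts in the nApoE4 experiment and 55809688 to 69768666 in the nApoE3 experiment, and the 10 genes together took between 2447 and 5492 CPM (counts scaled to library size, with TMM factors over the 11 samples). Of 12 microglia and macrophage markers, 7 had a mean of at least 1 CPM in every group. P2ry12 was at 0 in every sample, and Aif1 and Cx3cr1 were under 1 CPM in every group. Fcrls had means of 0.59 CPM in ControlA and 0.58 with nApoE4, and of 1.70 in ControlB and 1.31 with nApoE3. Trem2 varied widely in ControlA, from 1.33 to 60.5 CPM (mean 21.5, SD 33.8), so that this mean does not stand for the group. It had 1.19 to 5.29 CPM with nApoE4, 0.621 to 0.808 in ControlB and 0.372 to 0.670 with nApoE3. Of 4 neuron and 4 fibroblast markers, none reached 1 CPM in any group. The 4 astrocyte markers summed to 1.20 to 1.39 CPM in ControlA, 6.02 to 7.02 with nApoE4, 1.05 to 1.22 in ControlB and 4.36 to 4.53 with nApoE3, and Slc1a2 was the highest of them in each group. The 4 oligodendrocyte markers summed to 11.4 to 14.2, 9.33 to 11.8, 24.1 to 24.6 and 22.2 to 25.4 CPM in the same order, with Mog at 0 in every sample. Their part in the results was not tested. ControlA replicate 2 had the highest level of its group for all 10 genes, while it was highest for 42.6% of the 14240 genes tested in that experiment.

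With nApoE4, the 10 genes did not move together. Hspa5 and Herpud1 rose, Dnajb9, Sdf2l1, Pdia4 and Xbp1 fell, and 4 genes (Hsp90b1, Pdia6, Calr and Creld2) did not pass the test. With nApoE3, Hspa5 and Herpud1 again rose, and Sdf2l1, Pdia4, Xbp1, Hsp90b1, Pdia6 and Calr fell, the last 3 by small amounts. Treated and untreated samples of 1 experiment were compared by edgeR's quasi-likelihood test over all genes with enough counts, at a Benjamini-Hochberg adjusted p-value under 0.05. By this rule, 57.2% of 14240 genes were called with nApoE4 (28.6% higher and 28.6% lower) and 67.7% of 14817 genes with nApoE3 (33.1% higher and 34.6% lower), so that 6 and 8 calls among 10 genes are close to these shares. The standard errors of the 10 log2 fold changes were 0.064 to 0.090 with nApoE4 and 0.016 to 0.048 with nApoE3. Smaller changes thus passed with nApoE3, and the numbers of calls do not compare the sizes of the responses. Hsp90b1 and Calr changed by −0.13 and −0.16 with nApoE4 without passing, and by −0.077 and −0.076 with nApoE3. The median log2 fold change of the 10 genes was −0.14 with nApoE4 and −0.071 with nApoE3, against 0.0013 and −0.0026 over all genes tested. In both comparisons the same 2 genes rose, and the 5 genes called with both fragments had the same direction with each. The share of all genes called in the same direction with both fragments was not counted, so this does not set the 10 genes apart. In RNA from whole cultures, fewer cells that carry a transcript and less of it per cell cannot be told apart.

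**Figure D1:**
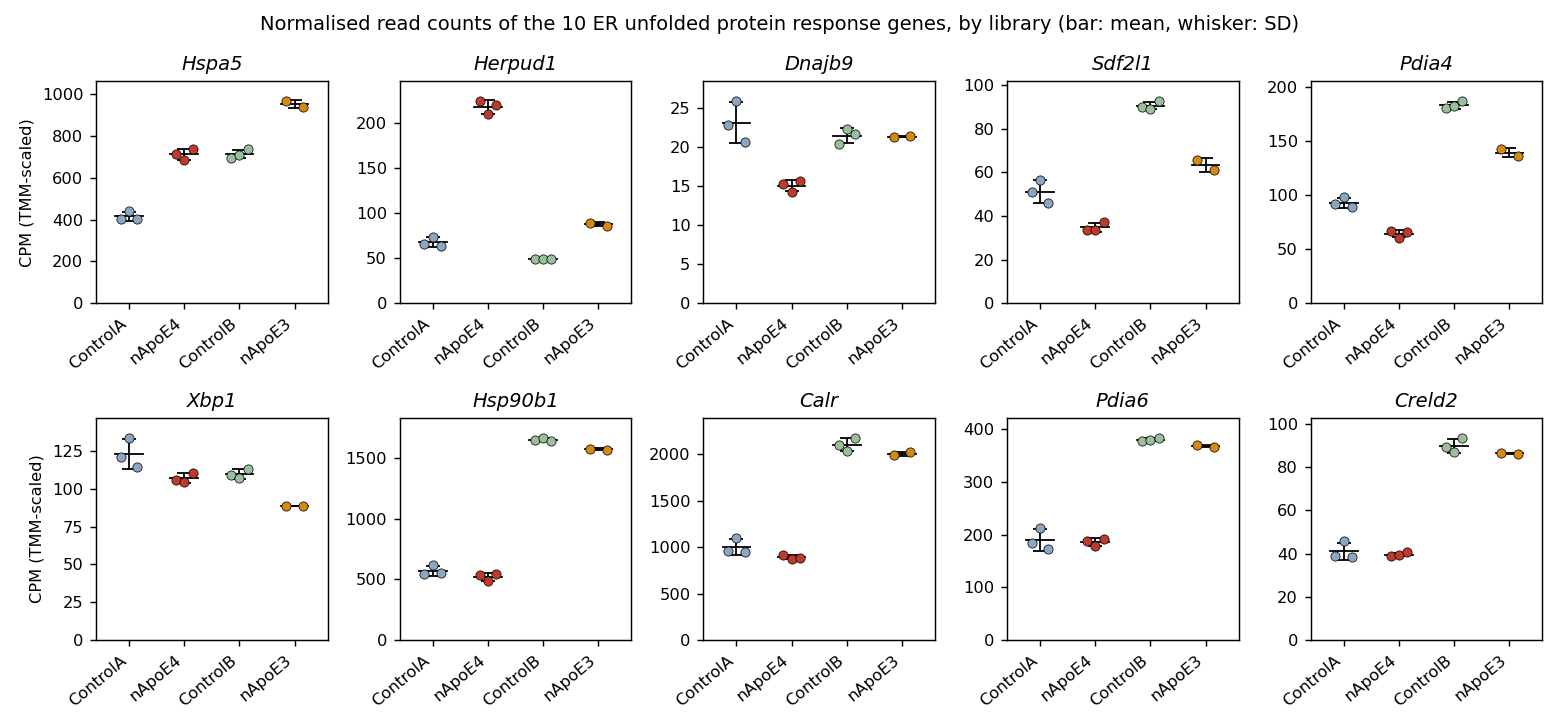
Normalised read counts (CPM, scaled by TMM) of the 10 genes in each of the 11 libraries, by group, with the mean and the SD. Hspa5 and Herpud1 are higher in both treated groups than in their own untreated libraries, while Sdf2l1, Pdia4 and Xbp1 are lower, and 7 of the 10 genes have lower levels in ControlA than in ControlB.

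Herpud1, which encodes a membrane protein of ER-associated degradation and lies at chr8:94386438-94395377, showed the largest change of the 10. It had 66.0, 74.1 and 64.0 CPM in ControlA and 224, 210 and 221 CPM with nApoE4. In the second experiment it had 49.2, 49.5 and 49.01 CPM in ControlB and 89.7 and 86.0 CPM with nApoE3. Every treated sample lay above every untreated sample of both experiments. The log2 fold change was 1.69 with nApoE4 (standard error 0.070, adjusted p = 4.44e-08 from edgeR), a 3.22-fold rise, and 0.83 with nApoE3 (standard error 0.030, adjusted p = 1.30e-10), a 1.78-fold rise. Among all genes tested, 94.5% had a lower log2 fold change than Herpud1 with nApoE4 and 88.1% with nApoE3. The annotation places an antisense transcript, Gm15890, over Herpud1, and since the strand setting of the counting is not given in the sources used here, its reads cannot be told apart from those of Herpud1.

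Hspa5 encodes BiP, the main HSP70 chaperone of the ER, which also holds the sensors inactive. It lies at chr2:34771970-34777547. Its level was 402, 440 and 405 CPM in ControlA and 714, 686 and 738 CPM with nApoE4. In the second experiment, it was 697, 710 and 737 CPM in ControlB and 968 and 941 CPM with nApoE3. The groups of each experiment did not overlap, and the level reached with nApoE4 (713 ± 26.1 CPM, SD, n = 3) was close to that of the untreated ControlB samples (715 ± 20.1 CPM, SD, n = 3). The log2 fold change was 0.78 with nApoE4 (standard error 0.067, adjusted p = 6.58e-06) and 0.41 with nApoE3 (standard error 0.025, adjusted p = 1.59e-08), rises of 1.72-fold and 1.33-fold.

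Among the genes that fell, Sdf2l1 encodes a small ER protein that works in a chaperone complex with BiP (chr16:17130138-17132383). It had 51.1, 56.4 and 45.8 CPM in ControlA against 33.5, 33.6 and 37.3 CPM with nApoE4, and 90.1, 89.1 and 92.5 CPM in ControlB against 65.6 and 61.0 CPM with nApoE3. Treated and untreated samples did not overlap in either experiment. The log2 fold change was −0.55 with nApoE4 (standard error 0.083, adjusted p = 3.47e-04) and −0.52 with nApoE3 (standard error 0.035, adjusted p = 5.13e-08).

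Pdia4 encodes ERp72, a protein disulfide isomerase (chr6:47796141-47813430). Its level was 91.5, 98.1 and 88.7 CPM in ControlA and 66.7, 60.4 and 65.7 CPM with nApoE4. It was 180.2, 182 and 187 CPM in ControlB and 142 and 136 CPM with nApoE3, again without overlap. The gene fell by 30.5% with nApoE4 (log2 fold change −0.52, standard error 0.064, adjusted p = 8.08e-05) and by 24.2% with nApoE3 (log2 fold change −0.40, standard error 0.028, adjusted p = 7.03e-08).

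Dnajb9 encodes ERdj4, a J-domain co-chaperone of BiP known to keep IRE1 in check (chr12:44205559-44210326). It was the least abundant of the 10 genes, with 22.9, 25.9 and 20.7 CPM in ControlA and 15.3, 14.3 and 15.7 CPM with nApoE4. In the second experiment, it had 20.4, 22.3 and 21.8 CPM in ControlB and 21.3 and 21.4 CPM with nApoE3, and these groups overlapped. It fell by 34.5% with nApoE4 (log2 fold change −0.61, standard error 0.090, adjusted p = 2.86e-04). With nApoE3 the log2 fold change was −0.015, with a 95% interval from −0.12 to 0.089 (adjusted p = 0.793).

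Xbp1 encodes the transcription factor that is activated when IRE1 splices its mRNA (chr11:5520659-5525893). The counts are summed over the gene and do not separate spliced from unspliced mRNA. Xbp1 had 121, 134 and 114 CPM in ControlA and 106, 105 and 111 CPM with nApoE4. It had 109, 108 and 113 CPM in ControlB and 88.6 and 88.9 CPM with nApoE3. The groups did not overlap in either experiment. It fell by 19.7% with nApoE3 (log2 fold change −0.32, standard error 0.030, adjusted p = 1.23e-06). The fall of 12.7% with nApoE4 (log2 fold change −0.20, standard error 0.068, adjusted p = 0.0334) did not pass when 1 sample was left out, at an adjusted p of 0.0714 without ControlA replicate 1, 0.107 without nApoE4 replicate 1, 0.0911 without nApoE4 replicate 2 and 0.0592 without nApoE4 replicate 3.

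The other 4 genes include the most abundant of the group. Hsp90b1 encodes GRP94, the HSP90 chaperone of the ER (chr10:86690209-86705509), and had 547, 617 and 547 CPM in ControlA, 536, 483 and 541 CPM with nApoE4, 1648, 1664 and 1637 CPM in ControlB and 1576 and 1565 CPM with nApoE3. Calr encodes calreticulin, a lectin chaperone for glycoproteins that binds calcium (chr8:84841850-84846934), and had 954, 1096 and 949 CPM in ControlA, 921, 871 and 889 CPM with nApoE4, 2102, 2041 and 2178 CPM in ControlB and 1991 and 2024 CPM with nApoE3. In both genes, the highest nApoE4 sample lay just below the lowest ControlA sample. The log2 fold change with nApoE4 had a 95% interval from −0.30 to 0.044 for Hsp90b1 (adjusted p = 0.181) and from −0.33 to 0.014 for Calr (adjusted p = 0.106). With all 11 samples in one fit, Calr passed with nApoE4 (log2 fold change −0.16, adjusted p = 0.0254).

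Pdia6 encodes the disulfide isomerase P5 (chr12:17266545-17284770), and had 172.5 to 212 CPM in ControlA, 178 to 191 CPM with nApoE4, 377 to 383 CPM in ControlB and 366.4 to 370 CPM with nApoE3. Creld2 encodes an ER protein with disulfide isomerase activity that is induced by ER stress (chr15:88819646-88826683), and had 38.6 to 45.7 CPM in ControlA, 39.0 to 40.6 CPM with nApoE4, 87.3 to 93.6 CPM in ControlB and 86.2 to 86.5 CPM with nApoE3. The treated and untreated groups overlapped with nApoE4 for both genes. Pdia6 overlaps Atp6v1c2, a gene on the other strand that had 3 to 23 counts per sample. With nApoE4, the 95% interval of the log2 fold change ran from −0.20 to 0.16 for Pdia6 and from −0.21 to 0.12 for Creld2. With nApoE3, Hsp90b1 fell by 5.22% (adjusted p = 0.00102), Calr fell by 5.16% (adjusted p = 0.0143) and Pdia6 fell by 3.58% (adjusted p = 0.0382), and Creld2 did not pass (95% interval from −0.14 to 0.0068, adjusted p = 0.0988). In the fit of all 11 samples, none of these 3 passed with nApoE3, at an adjusted p of 0.376, 0.381 and 0.617, and the number of lower genes was 3 in place of 6. The Pdia6 call was lost in 10 of its 11 alternatives, and the Calr call was lost without nApoE3 replicate 1 (adjusted p = 0.0925). Creld2 passed without ControlB replicate 2 (log2 fold change −0.088, adjusted p = 0.0364).

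**Figure D2:**
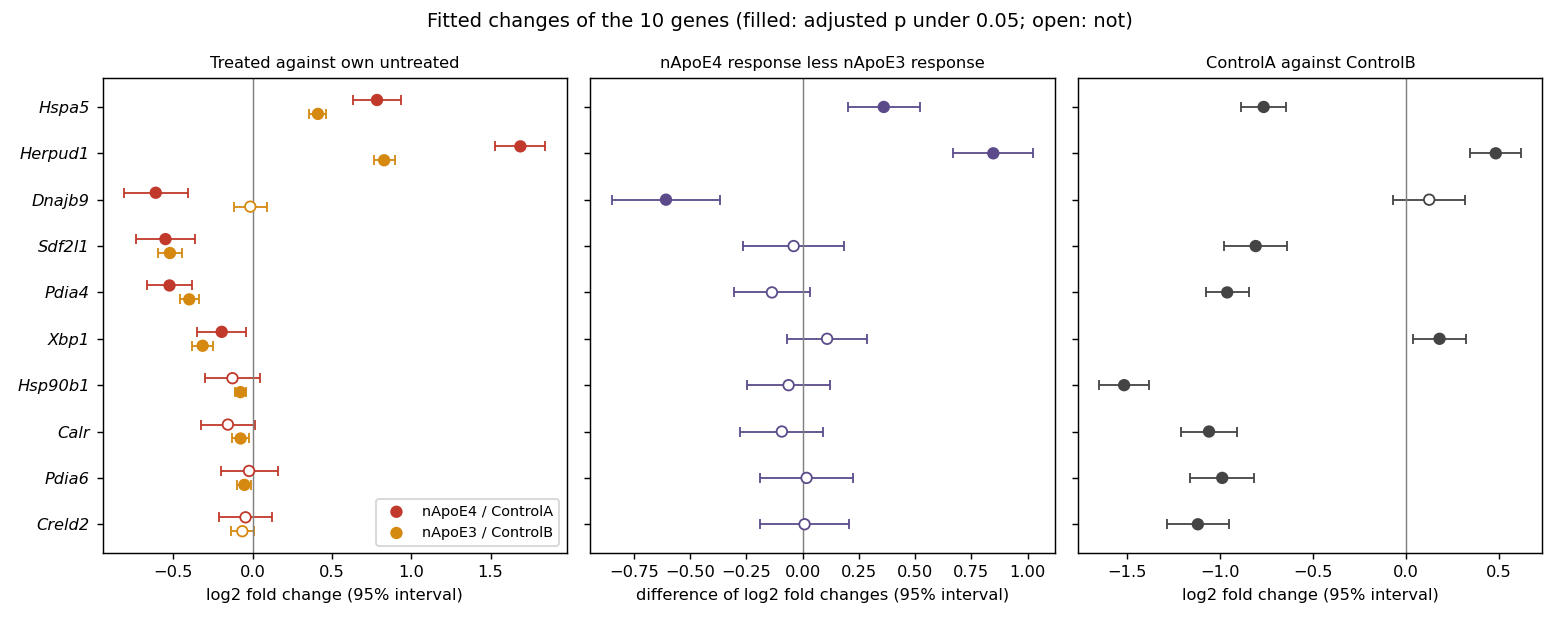
Fitted log2 fold changes of the 10 genes with their 95% intervals, for each fragment against its own untreated samples (left), for the difference between the responses (middle) and for ControlA against ControlB (right). Filled points have an adjusted p under 0.05. In the left panel the 2 genes to the right of 0 are Hspa5 and Herpud1, and in the right panel 7 genes lie at −0.77 or below.

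Counted by non-overlapping levels, 8 of the 10 genes separated the 3 nApoE4 samples from the 3 ControlA samples (2 higher and 6 lower) and 9 separated the nApoE3 from the ControlB samples (2 higher and 7 lower). Such a separation was found for 63.6% of all genes tested with nApoE4 (31.5% higher and 32.1% lower) and for 77.6% with nApoE3 (38.6% higher and 39% lower). Of the 6 genes with an exact ERSE or ERSE-II in the promoter window, 2 were called higher with nApoE4 and none lower. Their log2 fold changes ran from −0.16 to 1.69, and Hsp90b1 and Calr among them were lower without overlap. The 4 genes with neither element (Dnajb9, Sdf2l1, Pdia4 and Xbp1) were all called lower with nApoE4, by −0.61 to −0.20 on the log2 scale. The Dnajb9 window lies inside the GENCODE gene and does not show what precedes it. With nApoE3, 2 of the 6 were called higher and 3 lower, the latter by at most 0.077 on the log2 scale, and 3 of the 4 were called lower. Over all genes, 28.6% were called higher and 28.6% lower with nApoE4, and 33.1% and 34.6% with nApoE3. These are 10 genes, and no test was made of the elements.

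Whether a gene changed more with nApoE4 than with nApoE3 was asked by an interaction term in a fit of the 11 samples. Of the 10 genes, 3 passed, where 28.3% of 15287 genes did (14.4% higher and 13.9% lower). The rise was larger with nApoE4 by 0.85 on the log2 scale for Herpud1 (standard error 0.082, adjusted p = 7.81e-06), a ratio of 1.80 between the fold changes, and by 0.36 for Hspa5 (standard error 0.074, adjusted p = 0.00264). Dnajb9 differed the other way, by −0.61 (standard error 0.11, adjusted p = 0.00128). For the other 7 genes, the difference lay between −0.14 for Pdia4 (95% interval from −0.30 to 0.031) and 0.11 for Xbp1 (95% interval from −0.070 to 0.29). That of Sdf2l1 was −0.040, with an interval from −0.27 to 0.19. Xbp1 passed without ControlA replicate 2, with a difference of 0.17 and an adjusted p of 0.0342. Where an interval spans 0, the data do not show that the fragments act alike.

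For 6 of the 10 genes (Hsp90b1, Sdf2l1, Pdia4, Pdia6, Calr and Creld2), the difference between the untreated cells of the experiments was larger than the change with either fragment. Of the 10, 7 were lower in ControlA than in ControlB, 2 were higher (Herpud1 and Xbp1) and Dnajb9 did not pass, where 69.3% of 14249 genes were called (34.9% higher and 34.4% lower). The median log2 difference of the 10 genes was −0.89, against 0.0096 over all genes tested. Hsp90b1 differed most, with a log2 difference of −1.52 (standard error 0.057, adjusted p = 4.95e-07 from edgeR), a level 0.350 times that of ControlB. Creld2 (−1.12), Calr (−1.06), Pdia6 (−0.99), Pdia4 (−0.96), Sdf2l1 (−0.81) and Hspa5 (−0.77) followed, with standard errors of 0.050 to 0.074. Herpud1 differed by 0.48 (standard error 0.060, adjusted p = 1.58e-04) and Xbp1 by 0.18 (standard error 0.063, adjusted p = 0.0321). The Xbp1 call was lost without ControlA replicate 1 (adjusted p = 0.0737) and without each of the ControlB replicates 1, 2 and 3 (adjusted p = 0.119, 0.131 and 0.0615), and Dnajb9 passed without ControlA replicate 3 (log2 difference 0.20, adjusted p = 0.0346). The groups did not overlap for 9 of the 10 genes, against 74.1% of all genes tested (36% higher and 38.2% lower). Time, culture and sequencing run of the experiments cannot be told apart here.

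Among 22 other ER chaperones and folding enzymes, 13 were lower and 6 higher in ControlA than in ControlB. This is 86.4% called, against 69.3% of all genes (34.9% higher and 34.4% lower). Of the 6 higher genes, Ero1l (log2 difference 0.97), Ppib (0.60) and P4hb (0.50) differed most. The 7 with a log2 difference below −0.7, named here after their values were seen, were Manf (−1.31), Dnajb11 (−1.23), Hyou1 (−1.13), Canx (−1.09), Erp44 (−1.04), Pdia3 (−0.85) and Dnajc3 (−0.73). Manf is a secreted ER stress factor, Dnajb11 and Dnajc3 are co-chaperones of BiP, Hyou1 is a nucleotide exchange factor for it, Canx is the membrane partner of calreticulin, and Erp44 and Pdia3 are members of the disulfide isomerase family. Hyou1, for example, had 151 ± 3.04 CPM in ControlA and 334 ± 3.20 CPM in ControlB (SD, n = 3 each).

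Levels can be compared between genes per kilobase of exon, using the union of annotated exons of each gene. In ControlA, Calr was highest at 347 ± 29.0 CPM per kb (SD, n = 3), followed by Hsp90b1 at 142 ± 10.0, Hspa5 at 98.3 ± 5.0, Pdia6 at 50.6 ± 5.42, Sdf2l1 at 46.1 ± 4.79, Pdia4 at 38.7 ± 2.00, Xbp1 at 37.9 ± 3.03, Creld2 with a range of 28.2 to 33.5, Herpud1 at 29.2 ± 2.29 and Dnajb9 at 9.09 ± 1.03. The ranges of the neighbours Pdia6 and Sdf2l1, of Pdia4 and Xbp1 and of Creld2 and Herpud1 overlapped. With nApoE4, Hspa5 stood above Hsp90b1 (169 ± 6.18 against 129 ± 7.93 CPM per kb) and Herpud1 moved from the ninth to the fourth place (93.5 ± 3.26), while the ranges of the neighbours Xbp1 and Sdf2l1 overlapped. In ControlB and with nApoE3, the first 4 places were held by Calr, Hsp90b1, Hspa5 and Pdia6 in the same order as in ControlA, and no ranges of neighbours overlapped except those of Pdia4 and Sdf2l1 with nApoE3.

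**Figure D3:**
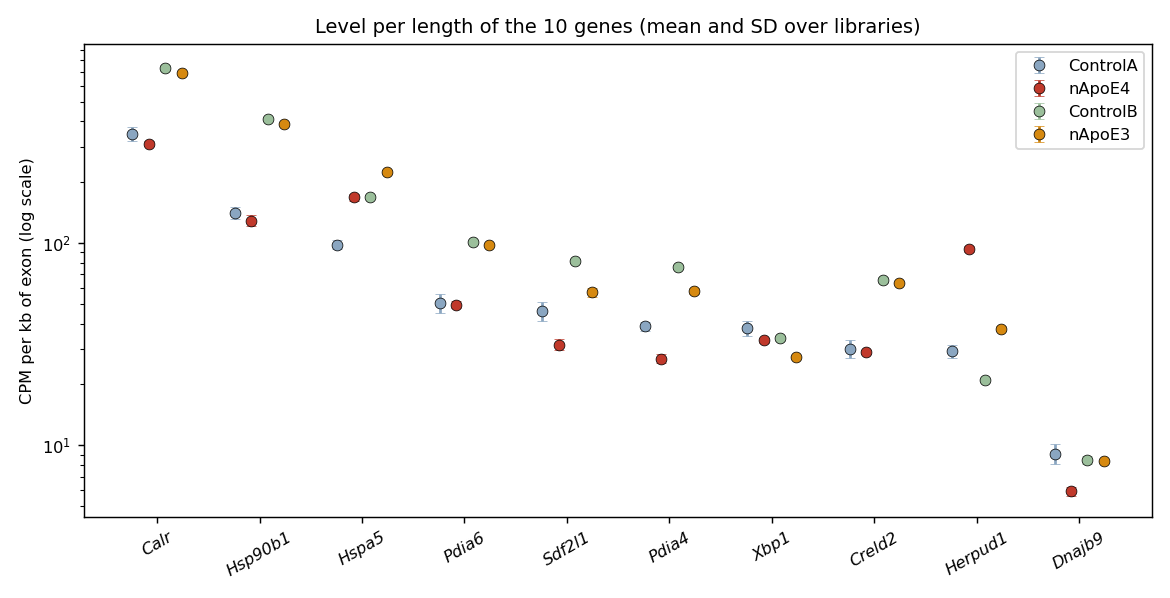
Mean level per kb of exon of the 10 genes, on a log axis, with the SD over the libraries of each group (3 in ControlA, nApoE4 and ControlB, 2 in nApoE3). The genes are ordered by their level in ControlA. Calr is the highest gene in each group and Dnajb9 the lowest, and Herpud1 with nApoE4 stands at 93.5 CPM per kb, against 29.2 in ControlA.

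Within groups, all 10 genes lay on the same side of their group means in 4 of the 11 samples (above in ControlA replicate 2, below in ControlA replicate 3, ControlB replicate 1 and nApoE4 replicate 2), while in the 2 nApoE3 samples 7 lay on one side and 3 on the other. All 45 pairs of genes had a positive Pearson correlation of these deviations over the 11 samples, with a median of 0.83 and a range of 0.62 to 0.95. Without ControlA replicate 2, a choice made after the values were seen, the median was 0.57 and the range 0.019 to 0.91. The points share libraries, and the 2 nApoE3 samples deviate by equal amounts in opposite directions because their own mean was subtracted. Pairs of other genes were not examined, so these correlations do not set the 10 genes apart. Less the mean of the untreated samples of the same experiment, the mean over the 10 genes lay between −0.093 in ControlA replicate 3 and 0.13 in ControlA replicate 2 on the log2 scale, and thus moved little with treatment, since rises and falls offset each other. Levels of 8732 genes outside the lists, centred in the same way, were ranked by how closely they followed this mean over the 11 samples. The first were Itgb1bp1 (Pearson r = 0.980), Acp1 (0.969), Rpl36a (0.967), Ndufa1 (0.954) and Mrpl15 (0.953). Their own mean changes were also small, from −0.055 to −0.00035 with nApoE3 and from 0.0088 to 0.029 with nApoE4. These correlations thus describe differences between single samples more than a response to treatment. The 10 genes themselves did not all follow the mean. Their correlation with the mean of the other genes of the 10 ran from −0.74 (Herpud1) to 0.93 (Pdia6). A shared regulation was not tested.

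Of the 8 sensors and their close relatives, 4 rose and 3 fell with nApoE4, and 1 rose and 5 fell with nApoE3, against 57.2% and 67.7% of all genes called in either direction. Eif2ak3, which encodes PERK, fell from 35.5 ± 0.236 to 17.1 ± 1.03 CPM with nApoE4 (log2 fold change −1.05, adjusted p = 6.47e-07) and from 35.1 ± 0.823 (n = 3) to 19.7 ± 0.875 CPM (n = 2) with nApoE3 (log2 fold change −0.84, adjusted p = 3.38e-09, edgeR; SD throughout). Ern1, which encodes IRE1, rose by 0.49 on the log2 scale with nApoE4 (adjusted p = 0.0123) and by 0.20 with nApoE3 (adjusted p = 0.00490). Atf6 rose by 0.19 with nApoE4 (adjusted p = 0.0445), while with nApoE3 it fell by 0.16 (adjusted p = 1.08e-04), and this difference between the fragments passed its test (0.33, adjusted p = 0.00684). Of the proteases that cut ATF6, Mbtps1 had log2 fold changes of −0.32 and −0.17 and passed with both fragments, and Mbtps2 rose by 0.17 with nApoE4 and fell by 0.15 with nApoE3. Among the ATF6-like factors, Creb3l2 fell by 0.80 and 1.11 on the log2 scale, Creb3 rose by 0.33 with nApoE4 and did not pass with nApoE3 (0.026), and Atf6b had only 9 to 27 counts per sample and passed with neither. The nApoE4 calls of Atf6 and Mbtps2 were lost without ControlA replicate 1 or 2 and without each nApoE4 replicate (adjusted p = 0.0649 to 0.127 and 0.0675 to 0.151) and with all genes of at least 1 count kept (adjusted p = 0.0937 and 0.09998), that of Ern1 was lost without nApoE4 replicate 2 (adjusted p = 0.0562), and the difference of Mbtps2 was lost without nApoE3 replicate 2 (adjusted p = 0.0607). With all 11 samples in one fit, the nApoE3 calls of Ern1 and Mbtps2 were lost (adjusted p = 0.199 and 0.0653). Without ControlA replicate 2, the difference between fragments passed for Eif2ak3 (−0.22, adjusted p = 0.0401), Mbtps1 (−0.21, adjusted p = 0.0138) and Creb3 (0.40, adjusted p = 0.000812), none of which passed with it (adjusted p = 0.0509, 0.170 and 0.0769). The difference of Eif2ak3 also passed without nApoE4 replicate 2 (adjusted p = 0.0327), with the Wald test of DESeq2 (adjusted p = 0.0429) and with DESeq2 size factors in edgeR (adjusted p = 0.0458). That of Creb3 also passed with all genes of at least 1 count kept (adjusted p = 0.0306).

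In the PERK and ATF4 arm, with nApoE4, 10 of 11 genes tested rose and 1 fell, with a median log2 fold change of 1.10, where 28.6% of all genes rose. With nApoE3, 7 rose, 1 fell and 3 did not pass, with a median of 0.20, where 33.1% of all genes rose. The difference between the fragments passed for 9 of the 11 genes, 7 of them higher with nApoE4, against 28.3% of all genes called in that difference. Trib3, a pseudokinase that is a target of ATF4 and CHOP, rose from 69.6 ± 8.64 to 278 ± 5.88 CPM with nApoE4 (SD, n = 3 each; log2 fold change 2.00, adjusted p = 6.28e-08) and had 44.2 CPM in ControlB and 47.6 CPM with nApoE3 (log2 fold change 0.099, adjusted p = 0.0794, and 0.0120 without ControlB replicate 3). Ppp1r15a, which encodes the phosphatase subunit GADD34 that reverses the translation block, rose with both fragments, by 1.86 and 1.74 on the log2 scale, and its difference did not pass (0.11, adjusted p = 0.441). Atf3, a transcription factor of many stress pathways, rose by 1.10 with nApoE4 and by 1.70 with nApoE3, and this difference passed the other way (−0.61, adjusted p = 1.56e-04). Ddit3, Atf4 and Ddit4 are named after their values were seen. Ddit3 rose from 31.7 ± 0.590 to 111 ± 4.41 CPM with nApoE4 (SD, n = 3 each; log2 fold change 1.81) and by 0.19 on the log2 scale with nApoE3. Atf4 rose by 0.87 and 0.22, a difference of 0.65 (adjusted p = 6.35e-04). Ddit4, the gene that fell with both fragments, changed by −1.13 with nApoE4 (adjusted p = 6.62e-07, edgeR) and by −0.61 with nApoE3 (adjusted p = 1.67e-05). Its difference of −0.53 between the fragments passed (adjusted p = 0.00506). Nupr1, the remaining gene of the list, had no counts in any sample.

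**Figure D4:**
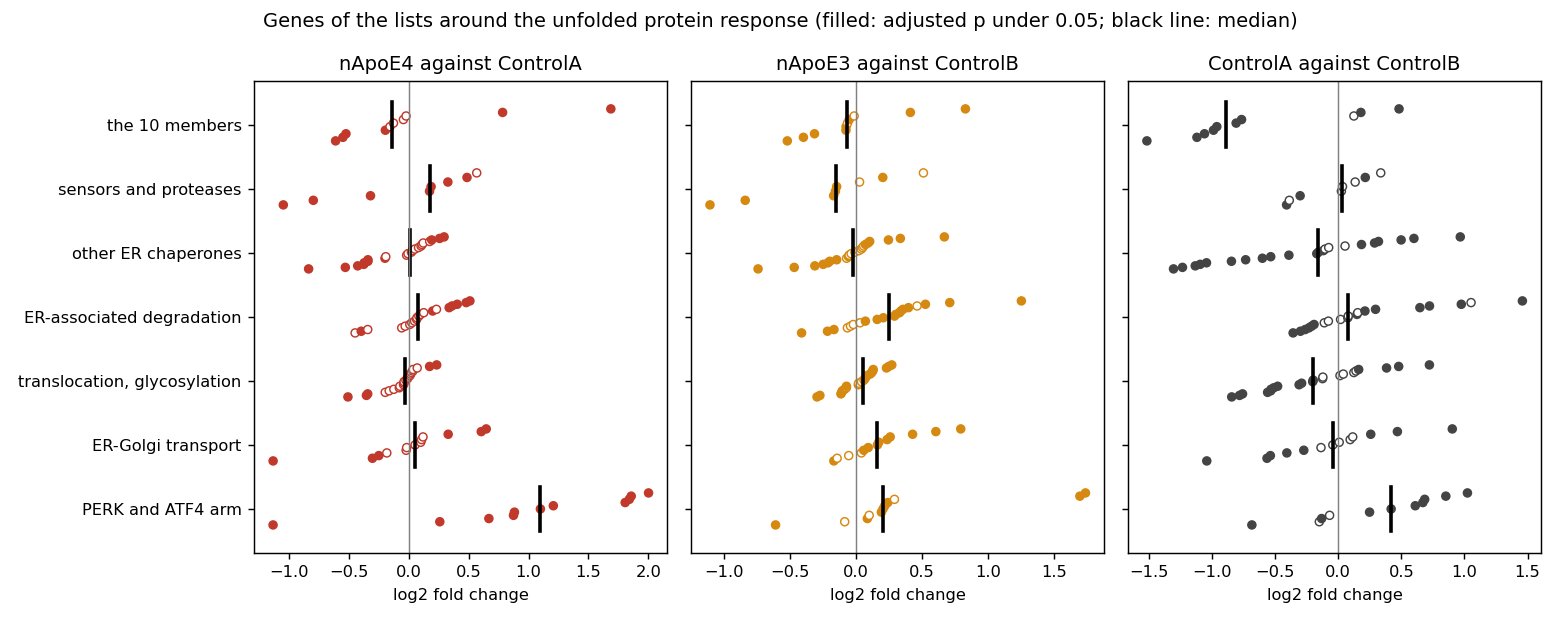
Log2 fold changes of the genes of each list for nApoE4 against ControlA, nApoE3 against ControlB and ControlA against ControlB, with 1 point per gene tested and the median as a black line (the transcripts cut by IRE1 are not drawn). Filled points have an adjusted p under 0.05. The PERK and ATF4 arm has its median at 1.10 with nApoE4 and at 0.20 with nApoE3, while the median of the chaperone list lies near 0 with both fragments and that of the 10 genes lies at −0.89 between the untreated groups.

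Among the 22 other chaperones and folding enzymes, 3 rose, 8 fell and 11 did not pass with nApoE4 (median log2 fold change 0.0075), and 6 rose, 8 fell and 8 did not pass with nApoE3 (median −0.024), so that 50% and 63.6% were called, against 57.2% and 67.7% of all genes. Erp29, a disulfide isomerase relative that aids secretion, fell most, from 545 ± 60.1 to 304 ± 8.24 CPM with nApoE4 (SD, n = 3 each; log2 fold change −0.84, adjusted p = 1.96e-05) and by 0.74 on the log2 scale with nApoE3 (adjusted p = 7.22e-11). Cnpy3, a chaperone of Toll-like receptors, fell by 0.53 with nApoE4 (adjusted p = 6.18e-05) and by 0.47 with nApoE3 (adjusted p = 8.78e-09). Ero1l, the oxidase that supplies disulfide bonds to the isomerases, rose by 0.67 with nApoE3 (adjusted p = 2.19e-08) and not with nApoE4 (0.022, adjusted p = 0.765), and the difference between the fragments, −0.66, passed.

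Of 20 genes of ER-associated degradation, 6 rose and 1 fell with nApoE4, and 12 rose and 3 fell with nApoE3, with medians of 0.076 and 0.25. The 35% called with nApoE4 lay below the 57.2% over all genes, and the 75% with nApoE3 near the 67.7%. Ube2j1, a ubiquitin-conjugating enzyme of the ER membrane, rose by 0.51 with nApoE4 (adjusted p = 1.10e-04) and by 0.40 with nApoE3 (adjusted p = 8.35e-08). Sel1l, the adaptor of the HRD1 ubiquitin ligase, rose by 0.48 with nApoE4 (adjusted p = 1.30e-04) and fell by 0.22 with nApoE3, and the difference of 0.68 between the fragments passed. Vimp, an ER membrane selenoprotein, rose by 0.53 with nApoE3 (adjusted p = 7.93e-09). With nApoE4 Vimp did not pass (0.12, adjusted p = 0.231), but passed without ControlA replicate 2 (0.21, adjusted p = 0.00936). Edem3, a mannosidase that marks glycoproteins for removal, fell by 0.41 with nApoE3 (adjusted p = 8.15e-08) and by 0.40 with nApoE4 (adjusted p = 0.00100).

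Of 13 genes of transport between ER and Golgi, 3 rose and 3 fell with nApoE4 and 9 rose and 1 fell with nApoE3, or 46.2% and 76.9% called, against 57.2% and 67.7% of all genes. Surf4, a cargo receptor, rose from 255 ± 22.0 to 397 ± 18.4 CPM with nApoE4 (SD, n = 3 each; log2 fold change 0.65, adjusted p = 6.06e-05) and by 0.79 with nApoE3 (adjusted p = 1.37e-11). Arfgap3, an activator of the ARF GTPase of Golgi vesicles, rose by 0.61 and 0.60. Of 22 genes of translocation, signal peptide cleavage and N-glycosylation, 2 rose and 3 fell with nApoE4, and 10 rose and 7 fell with nApoE3, all by at most 0.51 on the log2 scale, or 22.7% and 77.3% called. Tram1, a protein of the translocation channel, fell by 0.51 and 0.30, and Dad1, a subunit of the oligosaccharyltransferase, fell by 0.35 with nApoE4 (adjusted p = 0.00366) and rose by 0.23 with nApoE3 (adjusted p = 1.77e-05), and the difference of −0.60 between the fragments passed (adjusted p = 5.17e-04). Sec11c, a signal peptidase subunit, fell by 0.28 with nApoE3.

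A list of 6 transcripts known to be cut by IRE1 gave no single direction. With nApoE4, 2 rose and 2 fell among 5 tested, and with nApoE3, 4 rose and 1 fell among 6, or 80% and 83.3% called, against 57.2% and 67.7% of all genes. Bloc1s1, the best known of these, fell by 0.35 with nApoE4 (adjusted p = 0.0103) and by 0.18 with nApoE3 (adjusted p = 0.00261, and 0.122 with all 11 samples in one fit), and Pmp22, a membrane protein of myelin, rose by 0.71 and 1.62.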

How the data were processed

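RNA of 11 BV2 samples was sequenced as single-end reads of 75 bases. The authors trimmed the reads (Trim Galore 0.5.0), assessed them (FastQC 0.11.8), mapped them to GRCm38.p6 (HISAT2 2.1.0) and deposited raw counts per gene symbol (HTSeq 0.11.0). Annotation release, strand setting and overlap mode are not given in the sources used here. Of the reads tallied, 76.0 to 77.7% fell on genes, and the 11.7 to 13.2% with several map positions were left out, which can lower genes with close copies.

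The quasi-likelihood test of edgeR 4.0.16 (R 4.3.3) was run after filterByExpr and TMM, with Benjamini-Hochberg adjustment over all genes tested. Standard errors are |log2 fold change| over the root of F, and 95% intervals use them. Levels are CPM, with TMM factors over the 11 samples. Exon lengths and gene positions came from GENCODE M21 (GRCm38). At these depths, 3 counts equal 0.0430 to 0.0755 CPM.

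Samples of a group differed by 7.85 to 47.9 times the counting variance in ControlA and 5.36 to 12.0 times with nApoE4. The factors were 3.15 to 4.01 in ControlB and 4.34 with nApoE3, so no sample was a copy of another. As alternatives, DESeq2 1.42.0 was run, its size factors were used in edgeR, and genes were kept at 1 count in any sample or at 10 counts in each. Fits over all 11 samples, with the replicate number as a block, and without each sample in turn were also made. The pipeline was tested on simulated data. The 10 genes, the lists and the rules were chosen with earlier results of these data known. Named genes are the 10, all sensors, and, per other list and fragment, the 2 with the largest change among those with an adjusted p under 0.05 and at least 10 CPM in a group. The 5 genes outside the lists were ranked among those with a mean of at least 10 CPM.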

Additional observations from a re-analysis of the deposited data

Results flagged for a closer look

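For 3 of the 10 genes, the response to nApoE4 and the response to nApoE3 differed in edgeR's interaction test. The difference was 0.85 on the log2 scale for Herpud1 (adjusted p = 7.81e-06) and 0.36 for Hspa5 (adjusted p = 0.00264), both with larger rises with nApoE4. It was −0.61 for Dnajb9 (adjusted p = 0.00128), whose 3 nApoE4 samples all lay below the 3 ControlA samples. Since each fragment belongs to its own experiment, and the untreated level of Herpud1 and Hspa5 differed between the experiments by 0.48 and −0.77, fragment and experiment cannot be told apart.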

How the results depend on the processing

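Herpud1, Hspa5, Sdf2l1 and Pdia4 kept their direction and their call with both fragments under each alternative run, and so did Dnajb9 with nApoE4 and Xbp1 with nApoE3. With all 11 samples in one fit, 3 of the 10 genes and 17 list genes were called lower with nApoE3, against 6 and 26. Samples of an experiment that share a replicate number had correlated deviations of −0.17 to −0.0079, so the numbers do not pair them. With the replicate block, 1 of the 10 genes (Herpud1) was called higher in the difference between fragments, against 2, since Hspa5 did not pass (0.34, adjusted p = 0.0761), and 9 list genes were called lower there, against 16. Over all genes, the block left 2307 calls in this difference, against 4331. It also ended the calls of Atf6 in this difference (adjusted p = 0.0775), of Atf6, Mbtps2 and Xbp1 with nApoE4 (adjusted p = 0.115, 0.0875 and 0.101), of Pdia6 with nApoE3 (adjusted p = 0.0780) and of Xbp1 between the untreated groups, where 1 of the 10 genes was then called higher, against 2, and Trib3 passed with nApoE3 (adjusted p = 0.00521). Leaving out single samples left 1 of the 10 genes (Herpud1) called higher between the untreated groups where the Xbp1 call was lost, against 2. Without ControlA replicate 3, Dnajb9 was called higher there in addition to Herpud1 and Xbp1 (adjusted p = 0.0346 from edgeR). Leaving out single samples also gave 9 to 19 list genes called higher in the difference between fragments, the most without ControlA replicate 2, against 10. The cause was not tested.

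Changes of sign were confined to values near 0 that had not passed the test. Leaving out single samples moved the log2 fold change with nApoE4 over −0.091 to 0.059 for Pdia6, −0.092 to 0.034 for Creld2, −0.012 to 0.038 for Ero1l and −0.14 to 0.019 for Sec11c, and that with nApoE3 over −0.055 to 0.013 for Dnajb9 and −0.013 to 0.061 for Creb3. It moved the difference between fragments over −0.092 to 0.0023 for Hsp90b1, −0.11 to 0.038 for Sdf2l1, −0.046 to 0.11 for Pdia6, −0.034 to 0.095 for Creld2 and −0.13 to 0.28 for Atf6b, and that between untreated groups over −0.036 to 0.076 for Mbtps1. The replicate block gave differences of −0.016 for Creld2 and −0.0031 for Atf6b, and keeping all genes with at least 1 count gave −0.00039 for Ero1l with nApoE4. With 2 nApoE3 samples, the spread in that group rests on a single pair.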
